A study of Mus musculus with 15 samples.

Results

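The secreted insulin-like growth factor (IGF) binding proteins, the ligand Igf1 and its receptors were followed through RNA-seq of mouse retinal pigment epithelium (RPE). The members were taken by gene symbol from each raw count table: Igfbp2, Igfbp3, Igfbp4, Igfbp5, Igfbp6, Igfbp7, Igf1, Igf1r and Insr. All 9 had a row in both tables, which makes 9 of 20910 genes in the table of cultured cells and 9 of 25038 genes in the table of RPE/choroid.

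IGF-binding proteins hold secreted growth factor in complexes, which can keep it from its receptor or carry and release it, and proteases free it by cutting the complex. Igf1 acts through the tyrosine kinase receptor Igf1r, insulin acts through the closely related Insr, and both pass the signal to IRS adaptors, the PI3K-AKT and RAS-ERK cascades and, through AKT, to FOXO transcription factors. The RPE and the choroid are known to make several binding proteins and to respond to Igf1.

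The study asked what loss of Prom1, which codes for the membrane protein prominin-1, does to RPE cells. The cultured mRPE cells came from pooled C57BL/6J mice aged 8 to 12 weeks and were immortalised with a lentivirus carrying HPV E6/E7. The WT group held 4 libraries of these cells. The groups KO22 (3 libraries) and KO26 (2 libraries) were each 1 clone, made by giving mRPE cells Cas9 with a lentivirus, selecting them with puromycin and transfecting a guide RNA against exon 5 of Prom1, so that a clone and its genotype cannot be told apart. The study states that its 2 knockout lines are independent and carry deletions at separate places in Prom1. Whether the WT cells carried Cas9 is not stated for the sequenced libraries. The study set both KO26 libraries aside as outliers and kept KO22. The RPE/choroid libraries came from dissected eyes, 3 of WT mice and 3 labelled Prom1_KO, from Prom1fl/fl mice crossed with RPE65-Cre and gavaged with tamoxifen; the allele and tamoxifen status of the WT mice is not given, and the study's mice were of both sexes and 6 to 8 weeks of age, with no statement for this experiment alone. The Cre acts in the RPE, while the dissected tissue also holds choroid.

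Library depth was 27537863, 13469818, 10187978 and 12614921 counts in WT mRPE, 11863633, 20760399 and 13096157 in KO22, and 24175274 and 8076188 in KO26. RPE/choroid libraries held 59625225, 52590233 and 51742746 counts in WT and 48154444, 57016531 and 61766179 in the libraries labelled KO. Library names give 2 batches of mRPE, 8995 with 1 library of each group and 9262 with the rest, and 1 batch of RPE/choroid. Levels are in CPM, counts relative to library size on edgeR's TMM scale, made for each table on its own, so no level is compared across the tables. A gene was called at an adjusted p below 0.05 and an absolute log2 fold change above 1.2 in edgeR's quasi-likelihood test over all genes, and every adjusted p below is from that test. SD and SE stand for the standard deviation over libraries and the standard error of a log2 fold change.

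The labels were set against marker genes. Prom1, the targeted gene, stood in RPE/choroid at 48.7, 49.6 and 53.3 CPM in WT and at 49.9, 48.1 and 35.5 CPM in the libraries labelled KO. The groups overlapped, the log2 fold change was -0.18 (SE 0.16, n = 3 and 3) and the adjusted p was 0.824, so these counts do not show the deletion that the label gives. Gnat1, a photoreceptor marker, was at 17.3, 8.66 and 250.7 CPM in WT and at 124, 35.3 and 4.61 CPM in the libraries labelled KO, so the amount of photoreceptor RNA varied within both groups; its part in the Prom1 counts was not tested. The study checked its knockout in the cultured cells by genomic DNA analysis, Western blot and qPCR. Prom1 itself was not analysed here in the cultured libraries, so the label of KO22 and KO26 was taken from the records. Of 17 RPE marker genes, all 17 had a row in RPE/choroid, but only 4 (Best1, Rdh5, Mitf and Pmel) had one in cultured mRPE, where Rpe65, Rlbp1, Ttr, Lrat, Rgr and Tyr had none. A missing row is not taken here as a lack of expression. The 4 markers summed to 11.8 to 17.4 CPM in WT mRPE, 17.3 to 40.0 CPM in KO22 and 8.17 to 12.6 CPM in KO26, so the cultures are called mRPE here by their label. Replicate 3 of the RPE/choroid libraries labelled KO stood apart, with 80.4% of its counts in the mitochondrial ribosomal RNA genes, against 62.9 to 63.2% in the other KO libraries and 55.3 to 59.6% in WT.

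In the culture, clone KO22 stood far from WT. Igfbp2 and Igf1 fell to a small fraction of the WT level, Igf1r fell about 3-fold, and Igfbp3, almost without counts in WT, was found in every KO22 library. Of the 9 members, 1 was called higher and 3 lower, in a comparison in which 11.4% of the 20455 genes tested were called higher and 13.8% lower. The median log2 fold change of the 9 members was -1.09, beside -0.03 over all genes. The mitochondrial ribosomal RNA genes held 15.3 to 19.0% of the counts in WT, 11.1 to 13.3% in KO22 and 11.3 to 14.4% in KO26, so both clones lay below WT. All 9 members passed the count filter, Igfbp3 through KO22 alone and Igfbp5 through WT alone, so these members could pass only by being high in 1 group. The number called lower was 5 without WT replicate 1 or without KO22 replicate 1, and with any 1 KO22 library left out none was called higher, as Igfbp3 was then not tested.

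Igfbp2 (ENSMUSG00000039323, chr1:72863606-72891634 of mm39, plus strand) codes for a binding protein with a preference for Igf2. It was at 1051, 851, 997 and 1176 CPM in WT, at 7.18, 21.6 and 14.4 CPM in KO22, and at 1597 and 1144 CPM in KO26. Every KO22 library lay far below every WT and KO26 library, and the KO26 libraries lay in the upper part of the WT range or above it. Igfbp2 fell 71.6-fold in KO22, a log2 fold change of -6.16 (SE 0.33, adjusted p = 1.30e-06, n = 3 and 4). The batches gave -7.10 in 8995, with 1 library a group, and -5.78 in 9262, with a pseudocount of 0.5 CPM. In KO26 the log2 fold change was 0.49 (SE 0.32, adjusted p = 0.421), and the test between the clones gave -6.63 (SE 0.40, adjusted p = 2.12e-06).

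Igfbp2 set the make-up of the binding proteins. Per kb of exon, it took 76.2, 75.4, 76.0 and 78.9% of the summed level of the 6 binding proteins in the WT libraries, 83.3 and 75.2% in KO26, and 2.01, 7.23 and 5.04% in KO22. The WT and KO26 libraries overlapped and KO22 lay apart from both. In KO22 the place of Igfbp2 was taken by Igfbp6, with 31.5 to 47.2% of the sum, Igfbp4, with 28.1 to 42.6%, and Igfbp7, with 18.7 to 21.8%. These are shares of a sum, so they rise for the other members when 1 member falls.

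**Figure D1:**
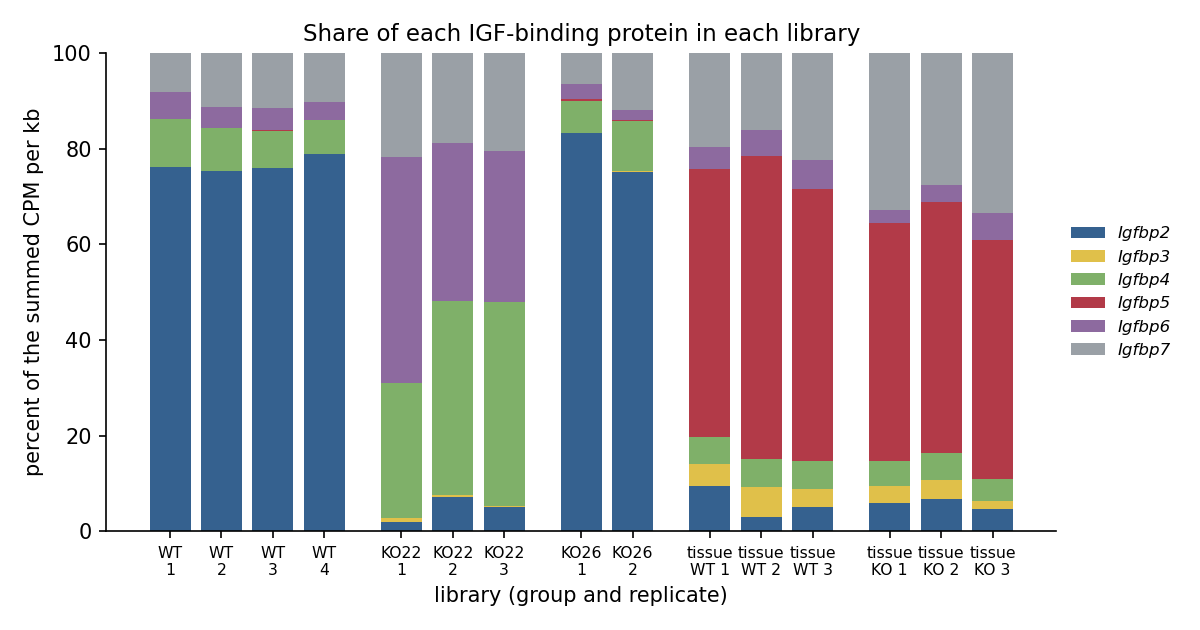
Stacked bars give, for each of the 15 libraries, the percent of the summed level (CPM per kb of exon) that each of 6 IGF-binding protein genes took; libraries are named by group and replicate, and the 2 tables were scaled separately. Igfbp2 takes 75.4 to 78.9% in WT mRPE and 2.01 to 7.23% in KO22, and Igfbp5 takes 49.8 to 63.2% in RPE/choroid.

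Igfbp3 (ENSMUSG00000020427, chr11:7156086-7164179, minus strand) codes for the main carrier of Igf1 in blood. In WT it was at 0, 0, 0.196 and 0 CPM, from 0, 0, 2 and 0 counts. In KO22 it was at 4.76, 1.45 and 1.47 CPM, from 55, 30 and 19 counts, and in KO26 at 0.0464 and 1.50 CPM, from 1 and 13 counts. All KO22 libraries lay above all WT libraries, while 1 KO26 library lay among the WT libraries and the other at the lower KO22 level. Over the groups, 104 counts in KO22 against 2 in WT gave a ratio of 73.5, with an exact 95% interval from 19.8 to 615 that covers counting error only. Igfbp3 rose in KO22 with a fitted log2 fold change of 5.98 (SE 0.80, adjusted p = 2.20e-04, n = 3 and 4), a value that rests on few WT counts. It was 8.62 without WT replicate 3 and 4.58 without WT replicate 1, and with any 1 KO22 library left out Igfbp3 missed the count filter and was not tested. The batches gave 3.39 and 1.81 with the pseudocount of 0.5 CPM. In KO26 it had 14 counts, a ratio to WT of 14.8 (3.40 to 134, for counting error only) and an adjusted p of 0.219; the direction turned without KO26 replicate 2, to -0.30, and a call came without KO22 replicate 1, at 4.54. The fitted difference between the clones, 2.05, was not called. It was -0.0073 without KO22 replicate 1, 0.067 without KO26 replicate 1 and 6.28 without KO26 replicate 2.

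Igfbp5 (ENSMUSG00000026185, chr1:72897091-72914043, minus strand) codes for a binding protein that attaches to extracellular matrix, and it is the gene next to Igfbp2. Their 3′ ends face each other with 5456 bases between them. Igfbp5 was at 0.119, 0.823, 2.06 and 0.502 CPM in WT, at 0.259, 0 and 0.0776 CPM in KO22, and at 19.8 and 13.4 CPM in KO26. KO22 overlapped the low end of WT, whereas both KO26 libraries lay above all other mRPE libraries, from 427 and 116 counts. Against WT, Igfbp5 rose in KO26 by a log2 fold change of 4.59 (SE 0.71, adjusted p = 0.0107, n = 2 and 4). This call was lost without KO26 replicate 1 (adjusted p = 0.0654) and without WT replicate 4 (0.0515), and the value was 3.53 without WT replicate 1, 3.81 without KO26 replicate 1, 5.24 without WT replicate 3 and 6.21 without KO26 replicate 2. The batches gave 5.04 and 3.21.

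In KO22, Igfbp5 had 4 counts beside 43 in WT, so that WT stood 7.61 times as high (exact 95% interval 2.76 to 29.2, for counting error only). The batches gave 0.29 in 8995 and -1.48 in 9262, so the direction turned between them. Its fitted log2 fold change of -2.87 (SE 1.12, adjusted p = 0.0556) was not called. DESeq2 called it at -2.98, as did edgeR's test without WT replicate 1 (-4.80) and without KO22 replicate 1 (-4.82); without KO22 replicate 2 it was -1.75. KO26 had 543 counts against these 4, a ratio of 203 (78.9 to 748, for counting error only). Between the clones Igfbp5 fell by 7.52 on the log2 scale (SE 0.96, adjusted p = 2.31e-04), with values from -9.14 without KO26 replicate 2 and -8.94 without KO22 replicate 1 to -6.72 without KO26 replicate 1 and -6.65 without KO22 replicate 2. The gene on the other side of Igfbp2, Rpl37a, had a log2 fold change of -0.42 in KO22 and was not called.

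Igfbp4, Igfbp6 and Igfbp7 were expressed in every mRPE library. Igfbp6 (ENSMUSG00000023046, chr15:102052697-102057953, plus strand), a binding protein that prefers Igf2, was at 51.5, 31.9, 39.9 and 37.2 CPM in WT and at 112, 65.8 and 59.7 CPM in KO22. All KO22 libraries lay above all WT libraries, but the log2 fold change of 0.89 (SE 0.12, adjusted p = 2.79e-04), with 1.11 and 0.79 in the batches, was under the fold limit. KO26 was at 41.3 and 19.8 CPM, which left Igfbp6 higher in KO22 than in KO26 by 1.52 (SE 0.18, adjusted p = 1.33e-04), a called difference.

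Igfbp7 (ENSMUSG00000036256, chr5:77493130-77555931, minus strand) codes for a relative that binds IGFs weakly and is found in vessel walls. It was at 294, 337, 398 and 399 CPM in WT, 204, 147 and 154 CPM in KO22, and 323 and 477 CPM in KO26. KO22 lay below both other groups, which overlapped. Its log2 fold change in KO22, -1.09 (SE 0.17, adjusted p = 5.39e-04), with -0.52 in batch 8995 and -1.32 in 9262, was under the fold limit, and Igfbp7 was called without WT replicate 1 (-1.34) and without KO22 replicate 1 (-1.32). Against KO26, Igfbp7 fell by 1.25 (SE 0.21, adjusted p = 0.00135); this call was lost without KO22 replicate 2 (-1.11), KO22 replicate 3 (-1.15) or KO26 replicate 2 (-0.92). Igfbp7 overlaps Polr2b on the opposite strand, and the sources do not say whether counting used the strand, so reads from the overlap are uncertain; Polr2b had a log2 fold change of 0.39 in KO22 and was not called.

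Igfbp4 (ENSMUSG00000017493, chr11:98932064-98945218, plus strand), a binding protein cut by the protease Pappa, was at 296, 214, 217 and 224 CPM in WT, 214, 259 and 259 CPM in KO22, and 273 and 341 CPM in KO26. WT overlapped both clones, and KO22 lay below KO26. Its log2 fold change in KO22 was 0.04 (SE 0.14, adjusted p = 0.848). The batches gave -0.47 in 8995 and 0.24 in 9262, so the direction turned between them, and the sign of the fitted value turned without WT replicate 2 (-0.015), KO22 replicate 2 (-0.075) or KO22 replicate 3 (-0.082). WT replicate 1, the only WT library of batch 8995, alone made up the upper end of the WT range.

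**Figure D2:**
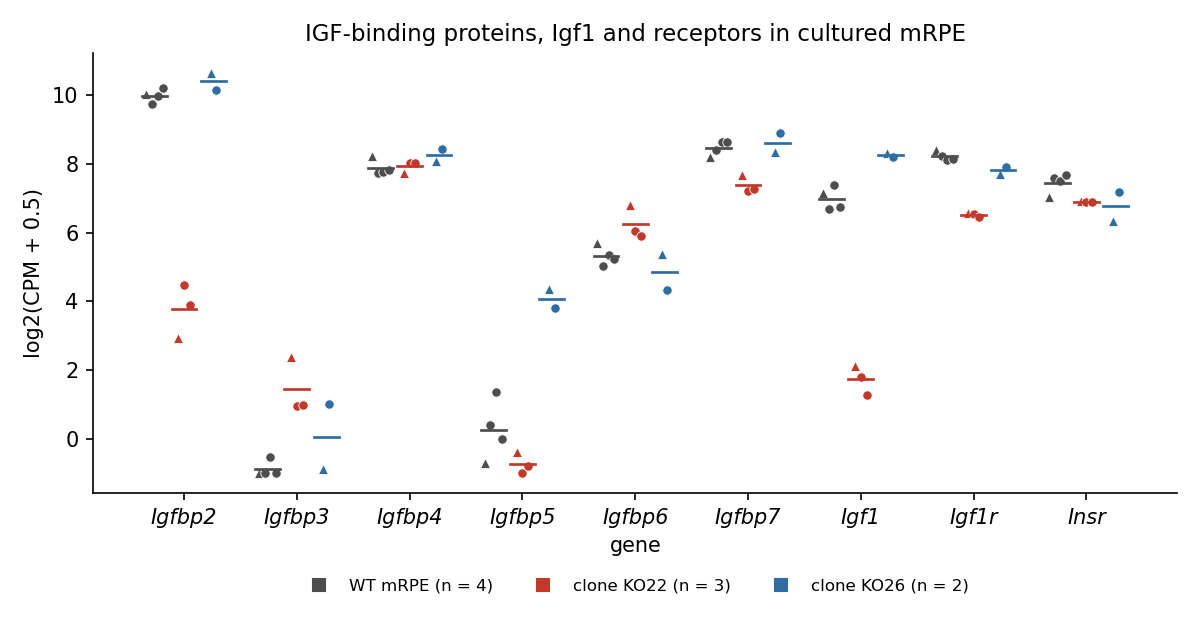
Points give log2(CPM + 0.5) of each member in each mRPE library, triangles for batch 8995 and circles for batch 9262, and bars give the mean of each group (WT n = 4, KO22 n = 3, KO26 n = 2). KO22 lies apart from WT for all members but Igfbp4 and Igfbp5. How many of all genes lie apart was not counted. At an unadjusted p below 0.05 in edgeR's test, 6001 of 20455 genes were higher in KO22 and 5937 lower. KO26 lies above WT for Igfbp5 and Igf1 and below WT for Igf1r.

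The ligand Igf1 (ENSMUSG00000020053, chr10:87693642-87772904, plus strand) followed Igfbp2 in KO22. It was at 140.5, 102, 167 and 108 CPM in WT, at 3.81, 2.99 and 1.94 CPM in KO22, and at 316 and 292 CPM in KO26. The 3 groups did not overlap, with KO22 far below WT and KO26 above it. Igf1 fell 45.2-fold in KO22, a log2 fold change of -5.50 (SE 0.26, adjusted p = 7.26e-07), and the batches gave -5.03 and -5.40. In KO26 its log2 fold change of 1.18 (SE 0.21, adjusted p = 0.0189) was under the fold limit; it was called without KO22 replicate 1 (1.203), without WT replicate 3 (1.34) and with no batch term (1.24). Both comparisons use the same 4 WT libraries. The test between the clones gave -6.67 (SE 0.28, adjusted p = 3.72e-07). The antisense gene Igf1os overlaps Igf1 and held at most 25 counts in an mRPE library, with a called log2 fold change of -4.39 in KO22, so reads that belong to either strand are uncertain.

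The receptor Igf1r (ENSMUSG00000005533, chr7:67601518-67883416, plus strand) was at 339, 299, 278 and 281 CPM in WT, at 94.95, 92.7 and 86.4 CPM in KO22, and at 208 and 240 CPM in KO26. KO22 was lowest in all 3 libraries, KO26 lay between, and no groups overlapped. Igf1r fell 3.30-fold in KO22, a log2 fold change of -1.72 (SE 0.11, adjusted p = 2.85e-06), with -1.83 and -1.67 in the batches. Its log2 fold change in KO26 was -0.43 (SE 0.14, adjusted p = 0.119). Between the clones it fell by 1.28 (SE 0.14, adjusted p = 9.52e-05), and this call was lost without KO26 replicate 2 (-1.07).

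Insr (ENSMUSG00000005534, chr8:3172061-3329647, minus strand), the insulin receptor, was at 129, 191, 181 and 202 CPM in WT, at 120.5, 117 and 117 CPM in KO22, and at 80.8 and 144 CPM in KO26. KO22 lay just below the lowest WT library, the only one of batch 8995, and far below the others. KO26 replicate 1 lay below both groups and KO26 replicate 2 within the WT range. The log2 fold change in KO22, -0.53 (SE 0.14, adjusted p = 0.00908), with -0.10 in batch 8995 and -0.70 in 9262, was under the fold limit, and in KO26 it was -0.57 (adjusted p = 0.119). Between the clones the value was 0.06, and its sign turned without KO22 replicate 1 (-0.21) or KO26 replicate 1 (-0.19).

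The balance between the receptors differed in KO22. Per kb of exon, the ratio of Igf1r to Insr was 1.83, 1.09, 1.07 and 0.968 in WT, 0.549, 0.551 and 0.514 in KO22, and 1.79 and 1.16 in KO26. All KO22 libraries lay below all others, with Insr the more abundant, and both libraries of batch 8995 in the other groups lay at the upper end.

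Per kb of exon, WT mRPE had Igfbp2 highest, with a mean of 489.97 CPM per kb, followed by Igfbp7 at 65.5, Igfbp4 at 53.8, Igfbp6 at 29.1, Igf1r at 15.1, Insr at 12.8, Igf1 at 12.6, Igfbp5 at 0.146 and Igfbp3 at 0.0138 CPM per kb. Library ranges overlapped between Igfbp7 and Igfbp4, between Igf1r, Insr and Igf1, and between Igfbp5 and Igfbp3. In KO22 the order began with Igfbp6 at 57.3 and Igfbp4 at 55.2 CPM per kb, which overlapped, and Igfbp7 at 30.9, and it ended with Igfbp3 at 0.718, Igf1 at 0.284 and Igfbp5 at 0.0187 CPM per kb. Insr at 8.59, Igfbp2 at 6.94 and Igf1r at 4.62 CPM per kb stood between these, with neighbours that overlapped. KO26 kept Igfbp2 on top at 659 CPM per kb, with Igf1 at 29.7 and Igfbp5 at 2.77 CPM per kb. The order rests on the exon lengths used: with the longest transcript in place of all exons, 12 of the gene-by-group ranks over both tables changed. None of these was in WT mRPE or KO22. In KO26 Igfbp4 and Igfbp7 changed places, and the rest were in RPE/choroid.

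In KO26, 1 of the 9 members was called higher (Igfbp5) and 0 lower, where 1.21% of 20737 genes were called higher and 0.719% lower by edgeR's test. At an unadjusted p below 0.05, 2292 of these 20737 genes were higher and 1871 lower, beside 3 and 3 of the members. DESeq2 called 363 genes higher and 258 lower, beside 1 and 0 of the members. The number called higher was 0 without KO26 replicate 1 or WT replicate 4, 2 without WT replicate 3 and 3 without KO22 replicate 1. Between the clones, in the same fit over 9 libraries, KO22 had 1 member higher (Igfbp6) and 5 lower (Igfbp2, Igfbp5, Igfbp7, Igf1 and Igf1r), beside 7.56% of genes higher and 10.7% lower. Without KO26 replicate 2 these counts were 2 and 3, with Igfbp3 called at 6.28.

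Genes around the members in the pathway were taken from lists of ligands, receptors, proteases, adaptors, cascades and targets. Of 74 listed genes outside the 9 members, 65 were tested in mRPE, and KO22 had 5 higher and 14 lower than WT, with a median log2 fold change of -0.35, beside the 11.4% and 13.8% of all genes called. Of those named, Igf2, Insrr and Stc2 reached the count filter only with the WT libraries and Cd93 only with those of KO22. They could thus pass only by being high in 1 group. The 5 higher genes were 3 without KO22 replicate 3. Igf2, the other IGF ligand, was at 0.477, 0.960, 1.08 and 1.65 CPM in WT, at 0, 0.0482 and 0 CPM in KO22, and at 2.00 and 1.16 CPM in KO26. KO22 held a single Igf2 count, so WT stood 42.5 times as high with an exact 95% interval from 7.33 to 1704 that covers counting error only. Its fitted log2 fold change was -5.14 (adjusted p = 3.23e-04), and -6.73 without KO22 replicate 2, the library with that count. Ins1 and Ins2 had no row, nor had Igfbp1, Igfals and Igfbpl1, the listed binding proteins outside the 9 members.

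Among the 5 genes for proteases that cut binding proteins and for their inhibitors, 1 rose and 3 fell in KO22, with a median of -1.44, in a list too short to set against the 11.4% and 13.8% of all genes called. Stc1 and Stc2 code for stanniocalcins, secreted inhibitors of the protease Pappa, and they moved in opposite directions. Stc1 was at 15.4, 18.03, 13.5 and 15.1 CPM in WT and at 132, 83.0 and 62.8 CPM in KO22, a rise of 2.49 on the log2 scale (adjusted p = 1.11e-05). Stc2 was at 7.67, 7.88, 8.44 and 7.61 CPM in WT and at 0.173, 1.25 and 0.776 CPM in KO22. The groups did not overlap for either gene, and Stc2 had a log2 fold change of -3.33 (SE 0.37, adjusted p = 7.30e-05), or -4.00 without KO22 replicate 2. Pappa (-1.54) and Htra1 (-1.44), named after their values were seen, fell too. Pappa was at 18.1 CPM in WT and 14.6 CPM in KO22 in batch 8995, and at 48.1 to 66.8 and 13.8 to 14.2 CPM in batch 9262, so its fall was far larger in the second. With 1 library left out its value ran from -2.04 to -1.36, called each time.

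Below the receptors, Irs1, the adaptor that carries the signal from Igf1r and Insr to PI3K, was at 203, 111, 120 and 118 CPM in WT, at 3.81, 9.74 and 7.76 CPM in KO22, and at 139 and 85.7 CPM in KO26. KO22 lay far below both. Irs1 fell 18.7-fold, a log2 fold change of -4.23 (SE 0.34, adjusted p = 1.26e-05). Grb10, an adaptor that brakes both receptors, was at 67.5, 42.8, 49.9 and 44.6 CPM in WT, at 246, 165 and 161 CPM in KO22, and at 26.3 and 16.0 CPM in KO26. No groups overlapped, and the clones lay on either side of WT: Grb10 rose in KO22 by 1.84 (SE 0.10, adjusted p = 1.49e-06) and had a called log2 fold change of -1.45 in KO26 (SE 0.14, adjusted p = 0.00139), or -1.27 and an adjusted p of 0.0613 with no batch term. The clones differed by 3.29 (SE 0.15, adjusted p = 8.21e-07).

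Of 13 adaptors and receptor brakes tested, 1 was higher (Grb10) and 3 lower (Irs1, Grb14 and Socs2, the last 2 named after their values were seen) in KO22, with a median of 0.20. In the PI3K-AKT list 1 of 11 rose, Pik3cb at 1.38, and in the RAS-ERK list 1 of 8 rose, Nras at 1.27. Single genes in lists of this length do not stand out from the 11.4% of all genes called higher. Neither list had a gene called lower by edgeR's test or DESeq2. At an unadjusted p below 0.05 in edgeR's test, the PI3K-AKT list had 5 higher and 2 lower. The RAS-ERK list had 4 higher and 0 lower, beside 6001 higher and 5937 lower of all 20455 genes. Pik3cb was not called without WT replicate 1 (1.199), nor Nras without KO22 replicate 3 (1.18). Among 5 cell-surface partners of binding proteins, Cd93, a receptor of endothelial cells, rose by 5.08 (SE 0.36), from 0.0686 to 0.215 CPM in WT to 4.72 to 6.83 CPM in KO22, and it missed the count filter without any 1 KO22 library. The orphan receptor Insrr had a log2 fold change of -3.01, or -6.46 without KO22 replicate 2, the only KO22 library with a count.

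FOXO factors switch on a set of genes when AKT is quiet. Of 15 FOXO target genes tested, a list that holds Insr too, edgeR's test called 0 higher and 6 lower in KO22, with a median of -0.65, beside 11.4% and 13.8% of all genes. At an unadjusted p below 0.05 the numbers were 1 and 13, beside 6001 higher and 5937 lower of all 20455 genes. DESeq2 gave 0 and 6, beside 2272 and 2699 of all genes. Fbxo32, a ubiquitin ligase of muscle wasting, fell to a log2 fold change of -3.46 and Pdk4, a kinase that limits pyruvate oxidation, to -3.03. Pdk4 was at 33.4, 59.8, 53.2 and 66.3 CPM in WT and at 6.05, 6.36 and 6.13 CPM in KO22. The KO22 libraries lay close together and below all WT libraries. None of the 3 FOXO factors tested and none of the 4 genes of the growth hormone axis was called by edgeR's test or DESeq2, with 2 and 3 of them lower at an unadjusted p below 0.05 and none higher.

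KO26 had 1 of the 65 pathway genes called lower, Grb10, and 0 higher by edgeR's test, where 0.719% and 1.21% of all genes were. At an unadjusted p below 0.05, 2292 of 20737 genes were higher and 1871 lower, and DESeq2 called 363 and 258. For the pathway genes these numbers were 10 higher and 9 lower, and 1 and 1 by DESeq2. The count of lower genes was 3 and that of higher genes 1 without KO26 replicate 2. Without KO22 replicate 1 there was 1 higher. Between the clones 6 pathway genes were higher in KO22 (Cd93, Grb10, Pik3cb, Stc1, Nras and Sod2) and 12 lower, beside 7.56% and 10.7% of all genes. Irs1 was lower by a log2 value of -3.84, or -3.23 without KO22 replicate 1, and Stc2 by -3.66, Fbxo32 by -2.55, Socs2 by -2.47 and Pdk4 by -2.18. Igf2 gave -5.98, with -5.02 without KO26 replicate 1, -7.22 without KO26 replicate 2 and -7.68 without KO22 replicate 2. Sod2 was not called without KO26 replicate 2 (1.10), and Stc1, at 1.67, was not called without KO26 replicate 1 (1.12) and was 2.38 without KO26 replicate 2.

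The summed fibroblast markers and the summed pericyte and smooth muscle markers were lowest in KO22, as Igfbp2, Igf1 and Igf1r were, though single markers differed in direction. Of 7 fibroblast markers 6 had a row (Lum had none), and they summed to 17500.3, 13683, 15579 and 12805 CPM in WT, 8668, 6797 and 5565 CPM in KO22, and 19867 and 21795 CPM in KO26. Col1a2 was the most abundant in each library but KO22 replicate 1, where Col3a1 was, and 3 of the 6 were called lower in KO22 (Pdgfra, Col1a1 and Col1a2). Dcn, not called, ranged from 414 to 1047 CPM in WT and from 946 to 1498 CPM in KO22. The 7 markers of pericytes and smooth muscle, led by Acta2, summed to 1959, 961, 937 and 990.5 CPM in WT, 382, 325 and 286 CPM in KO22, and 2185 and 1197 CPM in KO26. Of the 6 tested in KO22 against WT, 2 were higher (Kcnj8 and Cspg4) and 3 lower (Rgs5, Pdgfrb and Acta2). Kcnj8 and the endothelial Plvap reached the count filter only with the KO22 libraries. Rgs5 and the endothelial Kdr and Tek reached it only with those of WT. The filter thus favoured the direction in which these genes were called. Of 10 endothelial markers 7 had a row, without Cdh5, Emcn and Ca4, and they summed to 217 to 272 CPM in WT, 82.7 to 97.6 CPM in KO22 and 118 to 123 CPM in KO26. By group mean, Kdr was the most abundant in WT and KO26 and Flt1 in KO22, and Kdr and Tek fell and Plvap rose in KO22. Over all genes, 11.4% were called higher and 13.8% lower in KO22, and these lists are too short to set against those shares. The part of these markers in the results on the 9 members was not tested. In bulk RNA, fewer cells of a type and less RNA per cell cannot be told apart.

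Macrophage and melanocyte markers were mostly without a row in culture. Macrophage markers had 2 of 8 rows, without Ptprc and Adgre1, and summed to 7.61 to 13.8 CPM over all mRPE libraries; in KO22 none was called by edgeR's test or DESeq2, and 1 was higher at an unadjusted p below 0.05. Melanocyte markers had 1 of 5 rows, Pax3, which was at 16.5 to 23.3 CPM in WT, 0.259 to 3.23 CPM in KO22 and 17.0 to 24.2 CPM in KO26 and fell by 3.49 on the log2 scale in KO22. Pax3 reached the count filter only with the WT libraries, so the filter favoured this direction. Of the 4 RPE markers, Mitf, a transcription factor of pigment cells, rose in KO22 by 1.41. Rdh5 (-1.13, adjusted p = 0.00393) lay below WT in all KO22 libraries but was under the fold limit, and Pmel (-0.40) and Best1 (0.80) were not called. In KO26 against WT, edgeR's test called 1 gene of the marker lists given here, the pericyte marker Rgs5, at 2.55, while DESeq2 called 2 pericyte and smooth muscle markers higher and 1 RPE marker lower. Over all genes, edgeR's test called 1.21% higher and 0.719% lower in KO26.

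The genes most like each member over the 9 mRPE libraries were found by Pearson's correlation of log2 CPM among 16372 genes. The points share 3 groups and 2 batches, so the values describe a pattern only. Igfbp2 was closest to Ptgis (r = 0.998, n = 9), Lrig3 (0.997) and Tnfrsf19 (0.997), and Igf1 to Slc41a3 (0.997), Col6a1 (0.996) and Cdh11 (0.996). For Igf1r they were Gm32014 (0.994), Pde8b (0.993) and C130026L21Rik (0.992), and for Insr Gm37372 (0.991), Bcas3os1 (0.991) and Gm48302 (0.986). Igfbp3 was closest to Sema3c (0.976), Usp12 (0.966) and Bambi (0.960), and Igfbp5 to Hapln4 (0.972), Trpc6 (0.951) and Phyhd1 (0.951). Igfbp6 had Aldh3a2 (0.989), Baz1a (0.987) and D030062O11Rik (0.972), and Igfbp7 had Carmil1 (0.992), Cacna1g (0.990) and Gm20444 (0.990). Igfbp4, with WT overlapping both clones, had lower values, with Lrrc20 (0.884), Katnal2 (0.879) and 4930511M06Rik (0.877).

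Some of the nearest tested protein-coding genes also differed in KO22, where 11.4% of all genes were called higher and 13.8% lower. Fam169b, 40170 bases from Igf1r, fell by 4.75 on the log2 scale (SE 0.61, adjusted p = 1.78e-04), while Ttc23, 188857 bases away on the other side, was not called at -0.92. Beside Igfbp4, which was not called, Top2a, 17001 bases away, rose by 1.72 and Tns4, 11285 bases away, by 3.37. Soat2, 843 bases from Igfbp6, rose by 2.46, and Spryd3 on the other side was not called at 0.53. Beyond Polr2b, which overlaps Igfbp7, the nearest tested protein-coding genes were Adgrl3, 3611412 bases away, which rose by 2.23, and Noa1, 34833 bases away, not called at 1.19. Those of Igf1 were Stab2, 849752 bases away, which fell by 1.21, and Parpbp, 153632 bases away, not called at 0.97. The tested neighbours of Igfbp3 (Adcy1 at -0.69 and Tns3 at 0.45), Insr (Arhgef18 at -0.21) and the far side of Igfbp5 (Tns1 at -0.89) were not called.

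Because Igfbp2, Igf1 and Igf1r fell together in KO22, their promoters are shown, each from 250 bases before to 50 after the annotated start, from RefSeq on build GRCm38.p6. A promoter was listed for 8 of the 9 members, with none for Insr and 2 entries for Igfbp2, of which the first is given. Capitals mark GGGCGG, the core of the GC box, on the strand shown; both strands were searched.
Igfbp2 chr1:72824230-72824529, plus strand: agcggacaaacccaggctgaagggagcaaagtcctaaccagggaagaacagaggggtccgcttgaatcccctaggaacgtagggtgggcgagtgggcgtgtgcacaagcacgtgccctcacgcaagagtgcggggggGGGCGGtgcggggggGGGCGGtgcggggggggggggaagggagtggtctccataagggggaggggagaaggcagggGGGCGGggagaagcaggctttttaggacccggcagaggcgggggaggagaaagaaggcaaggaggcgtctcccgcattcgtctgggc
Igf1 chr10:87860861-87861160, plus strand: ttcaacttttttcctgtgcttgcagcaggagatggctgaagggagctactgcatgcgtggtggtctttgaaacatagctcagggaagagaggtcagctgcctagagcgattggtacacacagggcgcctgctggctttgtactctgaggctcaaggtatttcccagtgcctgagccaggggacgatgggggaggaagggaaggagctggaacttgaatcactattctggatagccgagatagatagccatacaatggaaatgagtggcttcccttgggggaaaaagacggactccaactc
Igf1r chr7:67952007-67952306, plus strand: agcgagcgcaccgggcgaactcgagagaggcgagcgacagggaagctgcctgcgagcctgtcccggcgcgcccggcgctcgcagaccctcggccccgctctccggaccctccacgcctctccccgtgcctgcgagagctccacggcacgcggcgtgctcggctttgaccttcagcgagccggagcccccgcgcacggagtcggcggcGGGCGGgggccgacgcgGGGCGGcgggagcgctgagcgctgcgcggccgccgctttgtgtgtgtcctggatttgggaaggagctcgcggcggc
The promoters differed in make-up. GGGCGG was found 3 times in that of Igfbp2, 2 times in that of Igf1r and not in that of Igf1 or in the second Igfbp2 entry, and 35.7% of 32851 promoters hold it. CCAAT was found once, in that of Igf1 on the other strand, and 37.4% of promoters hold it. Neither TATAAA (13.6% of promoters) nor TGTTTAC, a core bound by FOXO factors (3.65%), was found in any of the 3. The GC content was 67.0% for the first Igfbp2 entry, 57.3% for the second, 52.3% for Igf1 and 76.0% for Igf1r, beside a median of 52.7% over all promoters. A match is a description of these letters and no more.

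In RPE/choroid the family had another make-up. Igfbp5, nearly without counts in WT mRPE, was the most abundant member per kb of exon in WT tissue, with a mean of 75.7 CPM per kb, and Igfbp7 followed at 24.8 CPM per kb. The other members, from Igf1 at 7.54, Igfbp4 at 7.47, Igfbp2 at 6.98, Igfbp6 at 6.95 and Igfbp3 at 6.38 to Insr at 4.85 and Igf1r at 4.29 CPM per kb, overlapped their neighbours in this order. In the libraries labelled KO the order began with Igfbp5 at 59.7 and Igfbp7 at 37.3 CPM per kb and ended with Igfbp3 at 3.37 CPM per kb. With the longest transcript as length, Igfbp5 and Igfbp7 stayed on top in both groups, but ranks below them changed. For example, Igfbp3 moved from rank 7 to 9 in WT, and Igfbp4 from 4 to 6 in the libraries labelled KO.

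None of the 9 members was called in RPE/choroid, in either direction, by edgeR's test or by DESeq2. At an unadjusted p below 0.05 the numbers were 0 higher and 1 lower. Over all 24926 genes tested, edgeR's test called 0.0% higher and 0.189% lower, that is 0 and 47 genes, beside 993 and 1075 at an unadjusted p below 0.05 and 83 and 190 by DESeq2. The 47 genes were 14, 21 and 20 without WT replicates 1, 2 and 3, and 28 and 9 without KO replicates 1 and 2; genes called higher were 1 without WT replicate 3, 5 without KO replicate 1 and 3 without KO replicate 3. The median log2 fold change of the members was -0.33, beside 0.01 over all genes.

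Igfbp3 was the 1 member at an unadjusted p below 0.05. It was at 17.6, 32.0 and 18.7 CPM in WT and at 12.8, 13.7 and 9.55 CPM in the libraries labelled KO. All KO libraries lay below all WT libraries, which held for 1966 of the 24926 genes (7.89%). Its log2 fold change was -0.92 (SE 0.26, n = 3 and 3, edgeR's adjusted p = 0.362), with values from -1.07 to -0.59 when 1 library was left out. The groups overlapped for the other 8 members.

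Igfbp5 was at 356, 550 and 458 CPM in WT and at 309, 308 and 459 CPM in the libraries labelled KO. Replicate 3 of the latter, which stood apart, lay among the WT libraries, and the other KO libraries lay below them. Igfbp7 was at 113, 127 and 164 CPM in WT and at 185, 147 and 279 CPM in the libraries labelled KO, with replicate 3 the highest. Igfbp7 overlapped between the groups, and its log2 fold change was 0.59 (SE 0.26, adjusted p = 0.626), or 0.28 without KO replicate 3.

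As shares of the 6 binding proteins per kb, which do not depend on the scaling of a library, Igfbp5 took 56.2, 63.2 and 56.8% in WT and 49.8, 52.6 and 50.0% in the libraries labelled KO. Igfbp7 took 19.7, 16.1 and 22.5% in WT and 32.8, 27.6 and 33.5% in the libraries labelled KO. The groups did not overlap for either share, replicate 3 included. The mean share of Igfbp7 was higher by 11.9 percentage points and that of Igfbp5 lower, with a difference of -7.91. An exact permutation test gives a two-sided p of 0.1, the smallest possible, whenever 3 against 3 libraries do not overlap. The p of 0.1 for each of these shares therefore only restates the lack of overlap. The shares of the other 4 overlapped. The test on shares was chosen after the values were seen.

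Igf1 was at 76.7, 94.3 and 60.6 CPM in WT and at 56.5, 56.1 and 64.1 CPM in the libraries labelled KO. Igf1r was at 94.1, 80.3 and 80.0 CPM in WT and at 89.2, 87.8 and 87.0 CPM in the libraries labelled KO, and Insr at 61.99 to 73.3 CPM and 55.5 to 63.4 CPM. The groups overlapped for all 3 genes, with log2 fold changes of -0.39, 0.05 and -0.20. Igfbp2 ranged from 9.12 to 20.5 CPM in WT and from 12.8 to 14.8 CPM in the libraries labelled KO, and its log2 fold change of -0.08 turned to 0.25 without WT replicate 1. Igfbp6 ranged from 6.54 to 11.2 and from 4.02 to 11.8 CPM, at -0.50, or -1.16 without KO replicate 3, and Igfbp4 from 26.2 to 38.3 and from 23.5 to 30.4 CPM, at -0.33.

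**Figure D3:**
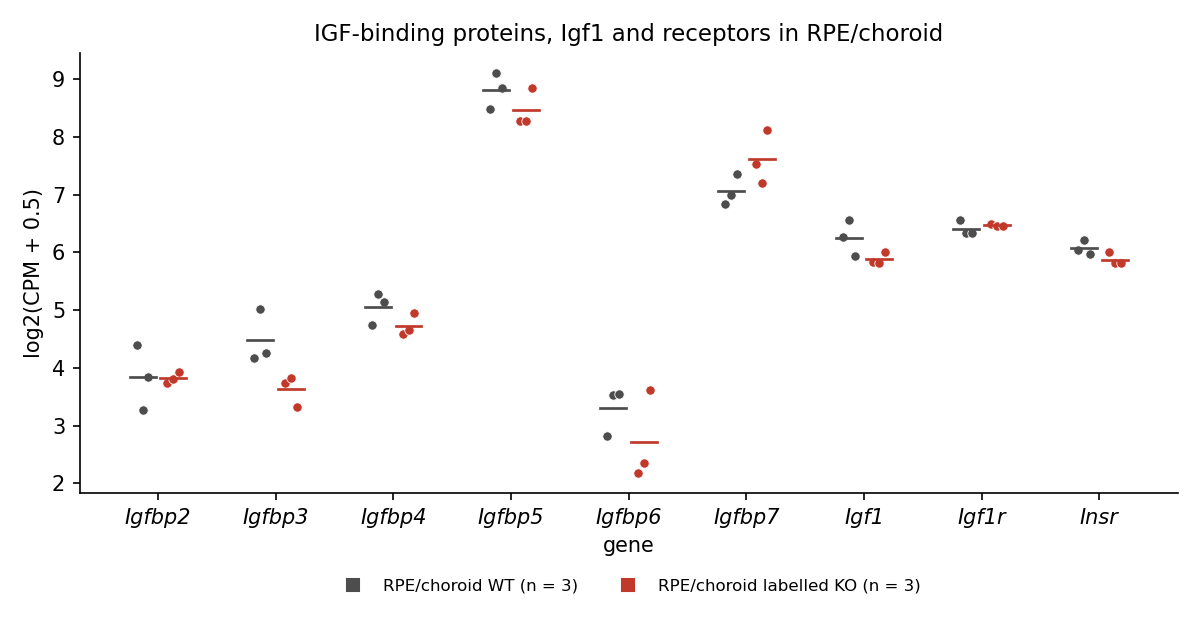
Points give log2(CPM + 0.5) of each member in each RPE/choroid library and bars give the mean of each group (n = 3 each). The groups overlap for the members except Igfbp3, whose libraries labelled KO all lie below WT.

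Of the 74 pathway genes 70 were tested in RPE/choroid, and edgeR's test called 0 higher and 0 lower. At an unadjusted p below 0.05 there were 3 higher and 7 lower, and DESeq2 called 0 and 1. The 1 was Stc1, at 4.64, 6.78 and 4.88 CPM in WT and at 2.23, 2.12 and 2.16 CPM in the libraries labelled KO. Its groups did not overlap, and edgeR gave a log2 fold change of -1.32 (SE 0.19, adjusted p = 0.0642). Igf2 was at 0.778 to 0.898 CPM in WT and at 0.330 to 0.392 CPM in the libraries labelled KO, with no overlap and a log2 fold change of -1.23 (SE 0.28, adjusted p = 0.210), not called. Other pathway genes lay higher in the libraries labelled KO without overlap and were not called. Htra1 was at 3.89 to 5.55 CPM in WT and at 6.63 to 12.6 CPM in the libraries labelled KO. Socs3 was at 1.92 to 2.03 and 2.60 to 4.54 CPM. Igfals, with few counts, was at 0.0292 to 0.0561 and 0.116 to 0.332 CPM. These genes were named here after their values were seen, and in clone KO22 Stc1 rose and Igf2 fell.

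Among the marker lists given here, genes of the RPE list were called in RPE/choroid. Of 17 RPE markers 5 were called lower in the libraries labelled KO (Rpe65, Rgr, Lrat, Slc16a8 and Rdh5) and 0 higher by edgeR's test, with 7 lower and 0 higher by DESeq2 and 8 lower and 0 higher at an unadjusted p below 0.05. Over all genes tested, edgeR's test called 0.189% lower and 0.0% higher. Rpe65, which makes the chromophore of vision, was at 279.8, 204 and 287 CPM in WT and at 1.13, 5.97 and 4.48 CPM in the libraries labelled KO, a log2 fold change of -6.06 (SE 0.62, adjusted p = 0.0191). The list summed to 3837, 2776 and 3135 CPM in WT and 1614, 1693 and 1414 CPM in the libraries labelled KO, with Ttr the most abundant by group mean in WT and Dct in the libraries labelled KO. Other genes of the list did not fall in this way. Dct was at 545, 517 and 315 CPM in WT and at 591, 570 and 619 CPM in the libraries labelled KO, not called. The groups overlapped for Tyr (65.3 to 95.8 and 81.5 to 115 CPM) and Trpm1 (83.4 to 164 and 114 to 232 CPM). They also overlapped for Tyrp1 (292 to 374 and 269 to 331 CPM) and Pmel (146 to 188 and 128 to 186 CPM). Endothelial markers (9 of 10, no row for Ca4, led by Flt1 in group mean) summed to 131, 252 and 169 CPM in WT and 119, 108 and 88.2 CPM in the libraries labelled KO, with 0 called by edgeR, 7 lower at an unadjusted p below 0.05 and 1 lower by DESeq2.

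Fibroblast markers, led by Dcn, summed to 922, 1658 and 1915 CPM in WT and 925, 814 and 1869 CPM in the libraries labelled KO. Pericyte and smooth muscle markers summed to 369 to 445 and 343 to 390 CPM, macrophage markers to 98.7 to 123 and 96.7 to 124 CPM, and melanocyte markers to 155 to 196 and 133 to 156 CPM. In these 4 lists none was called by edgeR's test or DESeq2, and from 0 to 2 genes a list and direction had an unadjusted p below 0.05. Schwann cell markers summed to 98.1, 132 and 109 CPM in WT and 79.1, 288 and 176 CPM in the libraries labelled KO, with KO replicate 2 the highest. None was called, and 2 were higher at an unadjusted p below 0.05. The part of the marker levels in the values of the 9 members was not tested.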

How the data were processed

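Bulk RNA of 9 mRPE and 6 RPE/choroid libraries was sequenced. The authors trimmed reads with Trim Galore 0.6.7, aligned them to mm39 with STAR and deposited raw counts per gene, unscaled; the strand setting is not stated, nor any filter on the tissue table. Genes reaching 5 counts in 3 or more fitted libraries were tested with edgeR 4.0.16 (R 4.3.3; TMM, quasi-likelihood, Benjamini-Hochberg over all genes, batch as a term in mRPE), with DESeq2 1.42.0 as an alternative; the fit was checked on simulated data. KO22 against WT used 7 libraries, and KO26 against WT and KO22 against KO26 used 9. SE is the absolute log2 fold change over the square root of F. Exon lengths and coordinates are from GENCODE vM39. Pathway genes named are up to 6 called per direction with the largest log2 fold change, and a few others marked in the text. Other settings were scaling, count filter, limits, batch term, libraries fitted, each library left out and, chosen after seeing the data, tissue counts without ribosomal RNA genes. Precision is limited by 2 to 4 libraries a group. The members and lists were chosen with earlier results of these data known. Deposited normalised counts were not used, and some marker genes are not reported here.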

Additional observations from a re-analysis of the deposited data

Results flagged for a closer look

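In 2 of 9 checks of the 4 WT mRPE libraries, 1 library lay far from the rest: Igfbp3, where replicate 3 held the only counts (2), so that the gap is 1.0 of the range by construction, and Igfbp4, where replicate 1, the only WT library of batch 8995, was highest, with a gap of 0.88, both above Dixon's limit. Chance alone marks about 1 in 20 groups.

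Against WT, the clones differed in 6 members by the test between them in 1 fit. The log2 differences, KO22 minus KO26, were -6.63 for Igfbp2, -7.52 for Igfbp5, 1.52 for Igfbp6, -1.25 for Igfbp7, -6.67 for Igf1 and -1.28 for Igf1r. Each clone is 1 line, so the effects of a clone and of its genotype cannot be told apart.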

How the results depend on the processing

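With the adjusted p limit alone, KO22 against WT gave 5506 genes higher and 5331 lower, with 2 members higher and 5 lower; KO26 against WT gave 490 and 235, with 2 members higher; and KO22 against KO26 gave 3388 and 3744, since fewer conditions applied. In batch 9262 alone KO22 had 0 members higher, as Igfbp3 was not tested there, and 5 lower. KO26 against WT gave 123 and 71 genes with no batch term, with 2 members higher, 408 and 410 with WT and KO26 alone, and 258 lower by DESeq2. RPE/choroid gave 83 higher and 190 lower by DESeq2, 1 higher with filterByExpr and 1 higher without ribosomal RNA genes, a setting chosen after seeing the data. With the longest transcript as length, 12 ranks of level changed. Where no construction is named, the cause was not tested.

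With 1 library left out, KO22 against WT ranged from 1791 to 2654 genes higher and 2490 to 3079 lower, with 0 to 1 members higher and 3 to 5 lower. KO26 against WT ranged from 68 to 471 and 32 to 407, with 0 to 3 members higher and 0 lower. KO22 against KO26 ranged from 1272 to 1832 and 1992 to 2397, with 1 to 2 and 3 to 5 members. RPE/choroid ranged from 0 to 5 and 9 to 37, with 0 members either way. A leave-out turned the sign of Igfbp4 in KO22 (-0.082 to 0.26), Igfbp3 (-0.30 to 6.32) and Igfbp7 (-0.17 to 0.43) in KO26, Igfbp3 (-0.0073 to 6.28) and Insr (-0.21 to 0.37) between the clones, and Igfbp2 in RPE/choroid (-0.33 to 0.25). Igfbp5 missed the filter in KO22 against WT without WT replicate 2, 3 or 4. Leave-outs that left 1 KO26 library assumed that it varied like the other groups. Few counts limited the values of Igfbp3 and Igfbp5 in mRPE, at 0 to 55 and 0 to 21 counts a WT or KO22 library.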
